A study of Mus musculus with 14 samples.

Results

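The expression of 9 genes of the interneuron lineage was examined in RNA-seq libraries of embryonic mouse hippocampus: Gad1, Gad2, Slc32a1, Dlx1, Dlx2, Dlx5, Dlx6, Lhx6 and Sst. They were chosen by name, as genes of GABA synthesis and loading, of the Dlx and Lhx6 programme and of 1 interneuron subtype, by a rule that uses no difference between groups. Earlier results of these data were known when these genes and the marker lists below were chosen. Where a symbol had several loci, the one with the highest mean over all libraries was kept. All 9 were found among the 59796 loci of the gene table (20349 different gene symbols), and all 9 passed the filter on low values in both mouse models. The study compared a pair of Down syndrome models with their wild-type littermates, in hippocampi dissected between E16 and E18 by the labels, which the study also calls E17. The 189N3 line (3 libraries) carries an extra copy of Dyrk1a on a BAC transgene, and it was set against 3 libraries of wild-type littermates. The Dp(16)1Yey/+ line (4 libraries) carries an extra copy of the segment of chromosome 16 that is syntenic to human chromosome 21, from Lipi to Zfp295 and so including Dyrk1a, and it was set against 4 libraries of its own wild-type littermates. The methods name OF1 and C57BL6 as wild-type strains, both for neuron cultures, for which mice of the 2 lines were crossed with C57BL6. The RNA-seq section of the methods gives no strain. The exact age and the sex of each embryo are not given in the sources used here, and their part in the results was not tested. Replicate numbers start at 0, as the labels have them.

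GABA is the main inhibitory transmitter of the mature forebrain. It is made from glutamate by the decarboxylases GAD67 and GAD65, which Gad1 and Gad2 encode, and it is packed into synaptic vesicles by VGAT, the product of Slc32a1. Hippocampal interneurons are not born in the hippocampus. They arise in the ganglionic eminences of the ventral forebrain, where the Dlx homeodomain factors set the GABAergic fate, and they migrate into the hippocampus during late gestation. Lhx6 is a LIM homeodomain factor of cells from the medial ganglionic eminence, and somatostatin, the product of Sst, is a neuropeptide of one of the classes that Lhx6 specifies. The same eminences give rise to striatal neurons, which also use Dlx genes, Gad1, Gad2 and Slc32a1. In bulk tissue, fewer cells of a type and less RNA per cell cannot be told apart.

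The Dlx genes lie as neighbouring pairs that are transcribed toward each other. On chromosome 2 of mm10, Dlx1 (XLOC_028517, 71528113 to 71533981, plus strand) ends 9427 bases before Dlx2 (XLOC_030793, 71543408 to 71546754, minus strand). On chromosome 6, Dlx6 (XLOC_042845, 6863334 to 6868568, plus strand) ends 9237 bases before Dlx5 (XLOC_044357, 6877805 to 6882085, minus strand). Gad2 (XLOC_027951, 22622205 to 22693874), Gad1 (XLOC_028499, 70553072 to 70602014), Slc32a1 (XLOC_029791, 158610767 to 158615748) and Lhx6 (XLOC_030532, 36081953 to 36105408, minus strand) also lie on chromosome 2. Sst (XLOC_021007, 23889573 to 23890958, minus strand) is the 1 member on chromosome 16, and it ends 51.6 Mb before the start of Lipi at 75540514, outside the duplicated segment, which holds 0 of the 9 genes.

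Upstream sequences are shown for the genes of the GABA pathway, for Dlx2 and for Sst, the first as the genes of GABA production and loading and the other two because their sequences held a motif that was searched. Each is the stretch of 250 bases before the transcription start that RefSeq gives on GRCm38.p6, written 5′ to 3′ on the strand of the gene. These starts can differ from the locus bounds given above. The Gad1 stretch lies inside the bounds of Gad1, and those of Gad2 and Sst overlap the edge of theirs. Capitals mark a cyclic AMP response element (CRE, TGACGTCA) or an E-box (CACGTG), searched on both strands together with the homeodomain core TAATTA.
Gad1, chr2:70561879-70562128, plus strand: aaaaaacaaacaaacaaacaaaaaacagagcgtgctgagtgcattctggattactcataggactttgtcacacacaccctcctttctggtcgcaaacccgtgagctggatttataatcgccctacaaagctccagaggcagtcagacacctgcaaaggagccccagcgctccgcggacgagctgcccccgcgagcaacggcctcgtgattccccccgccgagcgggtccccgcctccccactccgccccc
Gad2, chr2:22622077-22622326, plus strand: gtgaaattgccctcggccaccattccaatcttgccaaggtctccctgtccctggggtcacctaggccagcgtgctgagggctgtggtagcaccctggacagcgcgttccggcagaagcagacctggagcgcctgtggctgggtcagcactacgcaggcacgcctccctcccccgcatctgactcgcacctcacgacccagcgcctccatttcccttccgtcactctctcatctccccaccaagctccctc
Slc32a1, chr2:158610508-158610757, plus strand: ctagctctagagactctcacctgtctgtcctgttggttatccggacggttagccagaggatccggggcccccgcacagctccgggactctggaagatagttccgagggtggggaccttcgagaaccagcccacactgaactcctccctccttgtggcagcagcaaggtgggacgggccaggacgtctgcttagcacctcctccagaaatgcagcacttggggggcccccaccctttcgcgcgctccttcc
Dlx2, chr2:71546755-71547004, minus strand: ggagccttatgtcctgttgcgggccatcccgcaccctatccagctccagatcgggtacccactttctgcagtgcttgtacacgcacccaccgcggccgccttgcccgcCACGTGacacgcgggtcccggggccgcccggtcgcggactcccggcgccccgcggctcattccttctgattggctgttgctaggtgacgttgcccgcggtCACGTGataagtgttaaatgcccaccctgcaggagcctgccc
Sst, chr16:23890845-23891094, minus strand: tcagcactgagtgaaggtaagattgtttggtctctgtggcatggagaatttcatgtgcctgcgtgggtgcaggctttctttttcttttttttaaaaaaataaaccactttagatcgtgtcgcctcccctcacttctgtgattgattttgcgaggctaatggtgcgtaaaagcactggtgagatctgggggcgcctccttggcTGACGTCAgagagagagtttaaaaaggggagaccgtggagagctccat

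The sequences had no motif in common among those searched. The Sst sequence holds 1 CRE, whose first base lies 48 bases before the start, and a CRE of this exact spelling occurs in 1.56% of 32536 upstream stretches of the same length. The Sst CRE is the textbook element bound by CREB. The Dlx2 sequence holds 2 E-boxes, the first 142 bases before the start, and 6.04% of all stretches hold at least 1. TAATTA, which 4.84% of all stretches hold, was in 0 of the 5 sequences shown, nor was it in those of Dlx1 and Lhx6. Among the 5 sequences, the share of G and C was lowest in that of Sst, at 47.2%, and ranged from 58.0% to 66.4% in the others. Sequences of Dlx5 and Dlx6 were not used here.

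The 14 libraries held between 20809135 and 29098454 fragments, and values are fragments per locus divided by 1 size factor per library (normalized fragments), where 1 fragment is worth 0.816 to 1.21 units. Dyrk1a, the gene of the transgene, stood at 4248, 3938 and 5877 in 189N3 replicates 0 to 2 and at 2448, 2977 and 2126 in those of their littermates. In the Dp(16)1Yey line it stood at 4781, 2124, 3600.3 and 3044 in transgenic replicates 0 to 3 and at 2488, 2397, 3171 and 3175 in the littermates. The median of 85 genes of the duplicated segment was 0.40 to 0.69 above the littermate mean on the log2 scale in replicates 0, 2 and 3, but 0.10 above it in the library labelled Dp(16)1Yey replicate 1. This library also had the highest summed level of the progenitor list (62051 normalized fragments, against 29536 to 52545 in the other 3) and of the erythroid list (55213, against 6101 to 22660). The Dp(16)1Yey littermates formed nearly alike pairs: the squared difference was 1.43 times counting noise in the median locus between replicates 0 and 1 and 1.55 times between replicates 2 and 3, against 10.3 to 11.3 times across the pairs. All 4 were counted as samples, as labelled. Over all loci, limma called 0 at an adjusted p-value under 0.05 in either model, edgeR called 0, and DESeq2 called 15 in 189N3 mice and 8 in Dp(16)1Yey/+ mice.

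Levels were compared between members per kb of annotated exon, as means over the 14 libraries. Sst was the highest, at 369 ± 313 normalized fragments per kb (SD, n = 14), and it also had the widest spread, from 88.6 to 929.9. Lhx6 (159 ± 54.8), Gad2 (154 ± 43.6), Gad1 (129 ± 52.8) and Dlx1 (121 ± 27.6) followed closely, and these neighbours differed by less than their SD. Lhx6 was above Gad2 in 9 of 14 libraries, Gad2 above Gad1 in 11 of 14 and Gad1 above Dlx1 in 6 of 14. A step separated them from Dlx6 (43.9 ± 16.3), which was below Dlx1 in 14 of 14 libraries. Dlx2 (25.8 ± 10.7), Slc32a1 (20.5 ± 14.5) and Dlx5 (16.8 ± 8.16) were the lowest. Dlx6 was above Dlx2 in 13 of 14 libraries, whereas Dlx2 was above Slc32a1, and Slc32a1 above Dlx5, in 10 of 14 each. The transcript of the vesicular transporter was thus less abundant per length than those of both GABA-producing enzymes in each group, at 15.4 to 32.2 normalized fragments per kb in the group means, against 106 to 164 for Gad1 and Gad2.

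A difference from the littermates beyond the spread between libraries was not detected for any of the 9 genes in either model. With limma, 0 of 9 members passed an adjusted p-value of 0.05 in 189N3 mice, where 0% of 35899 loci tested did, and 0 of 9 had an unadjusted p-value under 0.05, where 1.87% of all loci did. The Dp(16)1Yey/+ counts were again 0 of 9 at the adjusted threshold (0% of 36024 loci) and 0 of 9 at an unadjusted p-value under 0.05 (3.53% of all loci). The libraries of the compared groups overlapped for all 9 genes in both models, whereas the groups did not overlap for 4.98% of loci in 189N3 mice (1.99% higher and 2.99% lower) and 2.45% in Dp(16)1Yey/+ mice (1.72% higher and 0.736% lower). The tests of edgeR and DESeq2 on the recovered fragments also called 0 of the 9 genes in each model. The median log2 fold change (log2FC, with its standard error as SE below) of the 9 genes was -0.02 in 189N3 mice, beside -0.04 over all loci tested, with 4 genes above 0 and 5 below. The corresponding median in Dp(16)1Yey/+ mice was -0.21, beside 0.03 over all loci tested, with 3 genes above 0 and 6 below, and it was 0.15 without littermate replicate 3 and -0.45 without Dp(16)1Yey replicate 0.

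**Figure D1:**
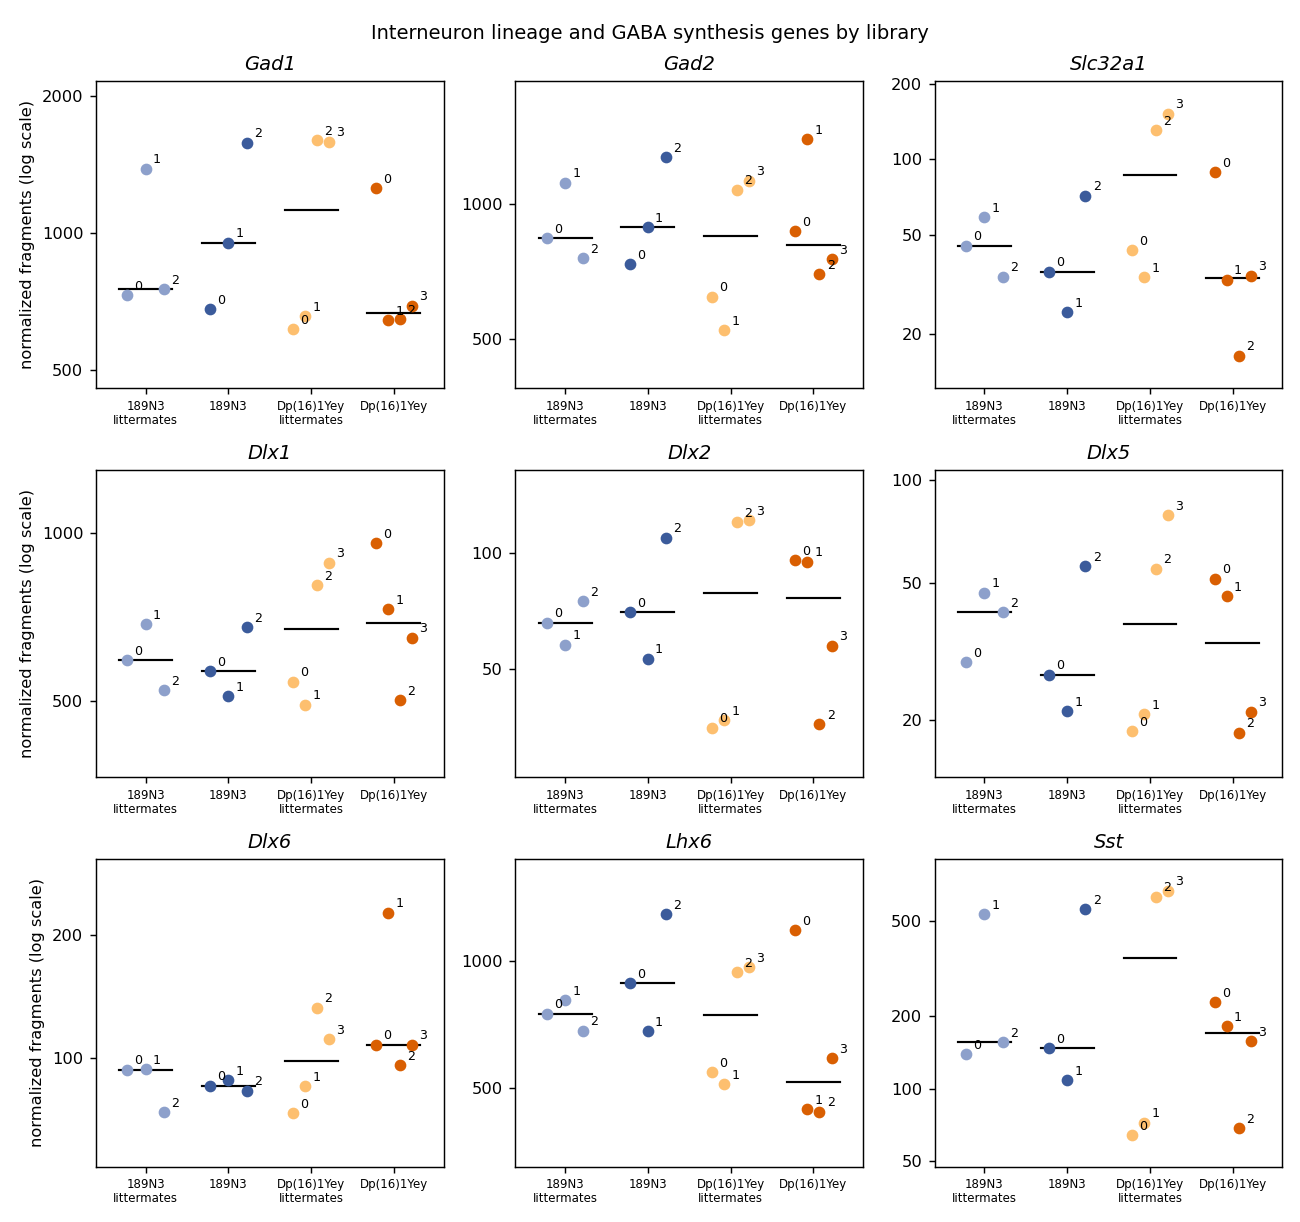
Normalized fragments of each member (log axis) in every library, numbered by replicate, with a line at the median of each group. The groups overlap in each panel, and the littermates of Dp(16)1Yey split into a low pair (replicates 0 and 1) and a high pair (replicates 2 and 3) for most genes.

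Among the genes of GABA production, Gad1 held 679, 952 and 1582 normalized fragments in the 189N3 libraries of replicates 0, 1 and 2, and 729, 1386 and 753 in those of their littermates. The high libraries were 189N3 replicate 2 and littermate replicate 1, and the remaining 4 lay between 679 and 952. The means were 1071 ± 463 (SD, n = 3) and 956 ± 373 (SD, n = 3), which gave a log2FC of 0.14 (SE 0.32, 95% interval -0.55 to 0.83, adjusted p-value 1.00 in limma). In the Dp(16)1Yey/+ line Gad1 stood at 1254, 642, 645 and 691 in replicates 0 to 3 of the transgenic mice, and at 614, 655, 1602 and 1589.7 in replicates 0 to 3 of the littermates. Here 1 of 4 transgenic and 2 of 4 littermate libraries were high. For Gad1 this came to a log2FC of -0.38 (SE 0.35, 95% interval -1.15 to 0.40), and limma gave an adjusted p-value of 0.909 and the exact two-sided permutation test p = 0.371.

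Gad2, whose product makes the GABA pool of the synaptic terminal, held 735, 889 and 1274 normalized fragments in 189N3 mice and 839, 1118 and 758 in their littermates. As for Gad1, 189N3 replicate 2 and littermate replicate 1 were the highest libraries of the line. This gave a log2FC of 0.08 (SE 0.26, 95% interval -0.49 to 0.64). Gad2 stood at 869, 1396, 697 and 754 in Dp(16)1Yey/+ mice, and in the littermates at 621, 523, 1077 and 1129.5. Dp(16)1Yey replicate 1, whose segment median was 0.10 above that of the littermates, was the highest of all 14 for Gad2 but among the lowest for Gad1. The log2FC of Gad2 in this line came to 0.17 (SE 0.29, 95% interval -0.47 to 0.81), and -0.04 without that replicate.

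Slc32a1 was low in the counts, with 16 to 151 fragments per library, so that counting error alone came to 25.0% of its lowest value. It held 35.5, 24.5 and 71.6 normalized fragments in 189N3 mice and 45.0, 58.7 and 33.8 in their littermates, a log2FC of -0.17 (SE 0.37), with 189N3 replicate 2 again the highest. Values of 89.0, 32.9, 16.3 and 34.2 were found in Dp(16)1Yey/+ mice, and in the littermates 43.3, 33.6, 131 and 153. Replicate 2 of the transgenic mice had the lowest value and replicate 3 of the littermates the highest, 9.35 times as much. The log2FC of -1.01 (SE 0.56, 95% interval -2.25 to 0.22) was the largest of the 9 genes in either model. Its unadjusted p-value of 0.0972 in limma was the smallest of the 9 (adjusted, 0.909). The exact two-sided permutation test gave p = 0.20, and p = 0.267 with each nearly alike littermate pair taken as 1 sample. The log2FC stayed below 0 with each library left out in turn, between -1.44 and -0.65. Each such fit kept at least 1 of the high littermate replicates 2 and 3, so dependence on that pair was not tested.

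The Dlx genes were described in the order of their pairs. Dlx1 held 565, 509.9 and 678 normalized fragments in 189N3 mice and 591, 685 and 522 in their littermates, and 958, 729.9, 501 and 648 in Dp(16)1Yey/+ mice against 541, 492, 805 and 883 in their littermates. It had the narrowest spread of the 9 genes, with a highest library 1.95 times the lowest. Its log2FC values were -0.04 (SE 0.24, 95% interval -0.54 to 0.47) and 0.07 (SE 0.25, 95% interval -0.48 to 0.61). As factors, the bounds of these intervals were 0.687 and 1.38 in 189N3 mice and 0.719 and 1.52 in Dp(16)1Yey/+ mice. The nearly alike littermates were counted as separate samples, so the Dp(16)1Yey/+ interval may be too narrow. Its transgenic group includes replicate 1, whose segment median was 0.10 above that of the littermates. Reads of Dlx1 may also have been shared with Dlx1as, a noncoding gene on the opposite strand.

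Dlx2 held 70.2, 53.0 and 110.0 normalized fragments in 189N3 mice and 65.8, 57.8 and 74.9 in their littermates. Unlike the other genes, it was lowest among these littermates in replicate 1. It stood at 95.9, 95.2, 35.7 and 57.4 in Dp(16)1Yey/+ mice, and in their littermates at 35.0, 36.6, 121 and 122. The fold changes were 0.17 (SE 0.30) and -0.01 (SE 0.47) on the log2 scale.

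Dlx5 was the least abundant member, with 18 to 78 fragments per library. It held 27.1, 21.2 and 56.0 normalized fragments in 189N3 mice, 29.5, 46.9 and 41.1 in their littermates, 51.4, 45.8, 18.4 and 21.1 in Dp(16)1Yey/+ mice and 18.5, 20.8, 55.1 and 78.9 in their littermates. High and low libraries occurred in each group of the Dp(16)1Yey/+ line, and the log2FC values were -0.26 (SE 0.37) and -0.21 (SE 0.49).

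Dlx6 followed another pattern. It lay between 73.7 and 93.9 normalized fragments in all 6 libraries of the 189N3 line, with no high library in either group. The Dp(16)1Yey/+ libraries held 108, 227, 95.9 and 108, and those of their littermates 73.1, 85.1, 133 and 111. Replicate 1 of the transgenic mice stood far above the other 3. The log2FC of Dlx6 came to 0.36 (SE 0.29, 95% interval -0.28 to 1.00), and 0.08 without replicate 1.

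Lhx6 held 887, 682 and 1289 normalized fragments in 189N3 mice and 750.2, 806 and 684 in their littermates, a log2FC of 0.30 (SE 0.26, 95% interval -0.25 to 0.86), which was the largest in this model. It remained above 0 with each library left out in turn, from 0.06 without 189N3 replicate 2 to 0.52. Lhx6 stood at 1183, 445, 439.8 and 589 in Dp(16)1Yey/+ mice, against 545, 511, 940.2 and 965 in the littermates, a log2FC of -0.22 (SE 0.33, 95% interval -0.95 to 0.51), or -0.54 to -0.07 with 1 library left out. Replicate 0 was the only transgenic library above 600 in this line.

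Sst had the widest range of the 9 genes over the 14 libraries. The 189N3 libraries held 147, 109 and 561 normalized fragments and those of their littermates 139, 533 and 156. Sst stood at 229, 182, 68.4 and 158 in Dp(16)1Yey/+ mice, and in the littermates at 63.9, 72.2, 633 and 670.4. The highest library held 10.5 times as much as the lowest, and both were littermates of Dp(16)1Yey mice. Counting error at the lowest value was 12.7%. The log2FC values were -0.12 (SE 0.55, 95% interval -1.29 to 1.04) and -0.53 (SE 0.75, 95% interval -2.18 to 1.12). The latter went to 0.02 without littermate replicate 3 and to -1.10 without littermate replicate 0, and it was -1.22 in edgeR and -1.23 in DESeq2, on the recovered fragments. Both intervals held a change by a factor of 2 in either direction, so that a change of that size was not detectable at this spread.

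**Figure D2:**
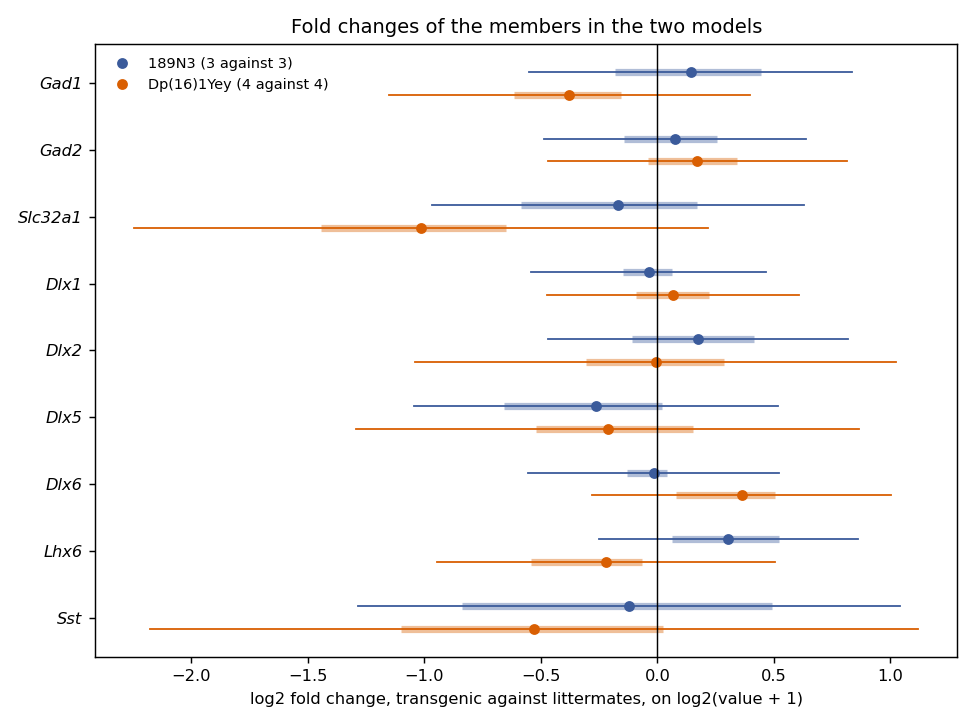
Log2FC of each member against the wild-type littermates in limma (points), with its 95% interval (thin lines) and the range over fits with each library left out in turn (thick bars). Each interval crosses 0 in both models.

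Whether the effect differed between the models was asked with an interaction term, in a fit of all 14 libraries. Here too 0 of 9 members passed the adjusted threshold (0% of 36045 loci), and 0 of 9 had an unadjusted p-value under 0.05, where 2.66% of loci did (1.53% with a higher and 1.12% with a lower log2FC in Dp(16)1Yey/+ mice). The differences, Dp(16)1Yey/+ minus 189N3, ran from -0.85 for Slc32a1 (SE 0.80) to 0.38 for Dlx6 (SE 0.39). Those of Lhx6 (-0.53, SE 0.47), Gad1 (-0.52, SE 0.55) and Sst (-0.41, SE 1.15) were below 0, and the adjusted p-values of these 5 genes in limma lay between 0.922 and 0.951. With 1 library left out these differences ran from -1.28 to -0.43 for Slc32a1, from -0.85 to -0.28 for Lhx6, from -0.82 to -0.19 for Gad1 and from 0.10 to 0.52 for Dlx6. That of Sst ran from -1.02 to 0.31.

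The members rose and fell together from library to library, Dlx6 less than the others. After the mean of each line was subtracted on the log2 scale, their mean was highest in littermate replicates 3 (0.86) and 2 (0.77) of the Dp(16)1Yey line, then in 189N3 replicate 2 (0.60), Dp(16)1Yey replicate 0 (0.46) and 189N3 littermate replicate 1 (0.34). It was lowest in Dp(16)1Yey replicate 2 (-0.73) and in littermate replicates 1 (-0.63) and 0 (-0.62) of that line. High and low libraries thus occurred in each of the 4 groups. Over the 14 libraries, 35 of the 36 pairs of members had a Pearson r above 0 and 29 one above 0.5, with a median of 0.78 and a highest value of 0.90 for Dlx2 with Dlx5. These are descriptions: the points share their line mean, and the nearly alike littermates give them less than 14 separate values. The pair at the other end was Dlx6 with Lhx6 (-0.02 over 14 libraries, 0.46 without Dp(16)1Yey replicate 1). Without this library the lowest r of all pairs was 0.46 and the median 0.84. Within the 6 libraries of the 189N3 line, Dlx6 had an r of -0.48 with Dlx2, -0.24 with Dlx5 and -0.02 with Lhx6. With the other members its r there was 0.14 to 0.42. The genomic neighbours Dlx1 and Dlx2 had an r of 0.86 (0.87 without the library), and Dlx5 and Dlx6 one of 0.45 (0.52 without it). Gad1 and Gad2, which lie far apart on chromosome 2, had an r of 0.64 (0.92 without it).

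**Figure D3:**
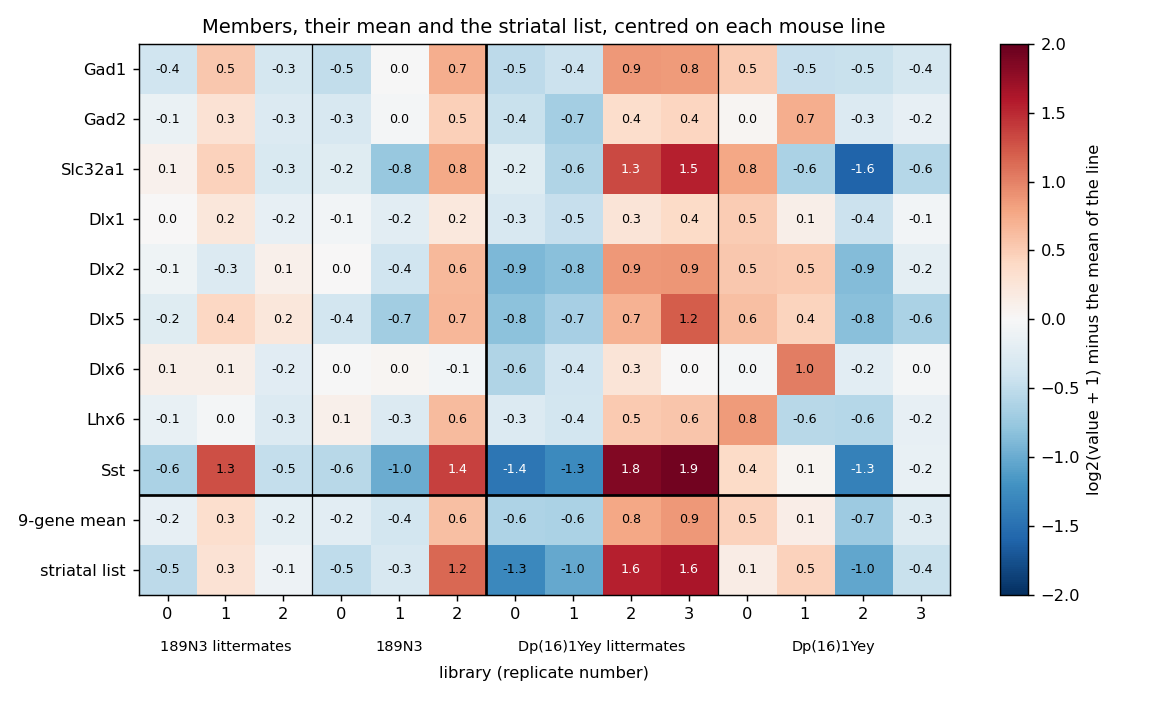
Log2(value + 1) of each member minus the mean of its mouse line, by library, with the mean of the 9 members and of 18 striatal genes in the bottom rows. Columns that are red or blue nearly throughout occur within each group, and Dp(16)1Yey replicate 1 is the mixed column, high for Gad2 and Dlx6 and low for Gad1, Slc32a1 and Lhx6.

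Genes of striatal neurons moved with them. The list of striatal genes was all present, with 0 of 18 at 0 in any library, and its summed level was 6875 to 12141 normalized fragments in 189N3 mice, 6302 to 7757 in their littermates, 6703 to 10782 in Dp(16)1Yey/+ mice and 7244 to 14477 in their littermates. Of the 18 genes, 18 had an r above 0 with the mean of the members and 17 one above 0.5. The mean of the list correlated with that of the members at Pearson r = 0.96 and Spearman rho = 0.91 over the 14 libraries, at 0.92 within the 6 libraries of the 189N3 line and at 0.96 within the 8 of the Dp(16)1Yey line. Without the 2 libraries farthest from the median of the striatal list, littermate replicates 2 and 3 of Dp(16)1Yey mice, r was 0.93 over the remaining 12. By member, r with the striatal list was highest for Sst (0.95), Dlx5 (0.92) and Dlx2 (0.92) and lowest for Lhx6 (0.68) and Dlx6 (0.49). Within the 189N3 line that of Dlx6 was -0.17. Of the striatal genes tested, 13 of 17 had a log2FC above 0 in 189N3 mice (median 0.23) and 2 of 18 in Dp(16)1Yey/+ mice (median -0.35), and 0 passed the adjusted threshold in either. The part of striatal RNA in the levels of the members was not tested.

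**Figure D4:**
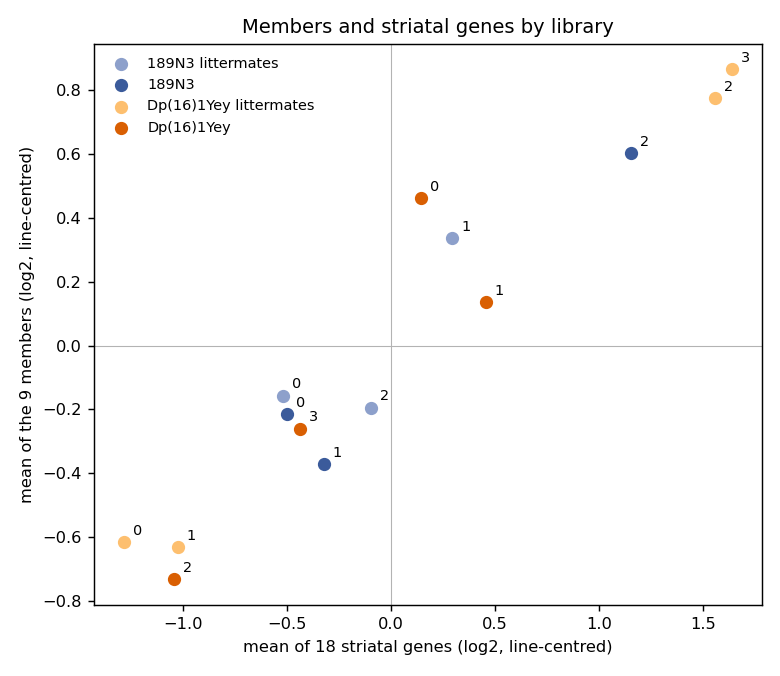
Mean of the 9 members against the mean of 18 striatal genes, both on the log2 scale minus the mean of the line, for each library with its replicate number. The libraries lie along a rising line, from littermate replicates 0 and 1 of Dp(16)1Yey mice at the lower left to littermate replicates 2 and 3 at the upper right, with libraries of each group on both sides of 0.

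The other marker lists had a lower r with the members. The genes of the hippocampal list were present in every library (0 of 11 at 0). The mean of this list had an r of 0.09 with that of the members, 0.62 within the 189N3 line and -0.09 within the Dp(16)1Yey line. Its genes did not move alike. Of the 11, 7 had an r above 0 and 3 one above 0.5, from -0.70 for Zbtb20 to 0.90 for Etv1. Cajal-Retzius cell genes, of the earliest cortical neurons, ran the other way in 8 of 8 genes (r of the list -0.42, and -0.19 within the 189N3 line), with summed levels of 13547 to 24959 normalized fragments in 189N3 mice, 18337 to 27231 in their littermates, 11172 to 26447 in Dp(16)1Yey/+ mice and 15136 to 27284 in their littermates. The list of glutamatergic and synaptic maturity genes had an r of 0.77 (0.91 within the 189N3 line and 0.74 within the Dp(16)1Yey line). The progenitor list had one of -0.26 (0.43 and -0.47), the choroid plexus list of -0.42 (-0.28 and -0.61) and the erythroid list of 0.02 (0.03 and 0.01). The summed erythroid level did not overlap between the groups of the 189N3 line, with 13836 to 22088 normalized fragments in 189N3 mice and 33689 to 54185 in their littermates. Hbb-bt of that list, a beta globin gene with near-identical copies, had a log2FC of -1.53 there (SE 0.24, adjusted p-value 0.139 in limma) and 1.29 in Dp(16)1Yey/+ mice (SE 0.66). Of the 7 erythroid genes, 7 had an unadjusted p-value under 0.05 in 189N3 mice, all lower (1.05% of all loci), and 0 in Dp(16)1Yey/+ mice (3.53% of all loci in either direction). The part of the erythroid RNA in the levels of the members was not tested.

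Other genes of the interneuron lineage were read in the same fits. Of 19 further regulators, 16 were tested in 189N3 mice and 18 in Dp(16)1Yey/+ mice, and 0 passed the adjusted threshold in limma in either model. At an unadjusted p-value under 0.05, 0 were higher and 1 lower in 189N3 mice (0.825% and 1.05% of all loci tested), and 0 higher and 1 lower in Dp(16)1Yey/+ mice (1.71% and 1.82%). In 189N3 mice this was Lhx8, a LIM homeodomain factor of the medial eminence, at 0, 3.26 and 6.23 normalized fragments against 4.33, 47.8 and 6.04 in the littermates (log2FC -1.97, SE 0.83), with 1 littermate library far above the other 2. In Dp(16)1Yey/+ mice it was Nr2f2, a nuclear receptor gene of the caudal eminence (log2FC -0.88, SE 0.40, adjusted p-value 0.909 in limma). It held 412 to 984 normalized fragments there, against 702, 748, 1981 and 2107 in littermate replicates 0 to 3, with the nearly alike replicates 2 and 3 high. The exact two-sided permutation test gave p = 0.20, and p = 0.40 with each nearly alike littermate pair taken as 1 sample. The groups did not overlap for 1 of the 16 regulators in 189N3 mice (4.98% of all loci), Zeb2, which steers migrating interneurons to the cortex and is also expressed by other neurons, with a log2FC of 0.32 (SE 0.21). The mean of the regulator list had an r of 0.95 with that of the members, with 14 of 17 genes above 0.5. This list includes Dlx1as and Dlx6os1, noncoding genes at the sites of Dlx1 and of the Dlx5 and Dlx6 pair. It is therefore not separate from the members, and r without these genes was not tested. Zeb2 had the lowest r, at -0.55.

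Of 14 tested genes of interneuron subtypes and migration, 7 had log2FC values above 0 and 7 below in 189N3 mice, and 1 above and 13 below in Dp(16)1Yey/+ mice. Reln, Calb2 and Ndnf of this list are also in the Cajal-Retzius list, and each was below 0 in Dp(16)1Yey/+ mice. In limma, 0 of them passed at an adjusted p-value under 0.05 and 0 at an unadjusted one in either model. The smallest p-values were those of Nos1, the neuronal nitric oxide synthase gene, in 189N3 mice (log2FC 0.60, SE 0.29) and of Htr3a, a serotonin receptor gene of caudal eminence interneurons, in Dp(16)1Yey/+ mice (-0.73, SE 0.38). Adarb2 was not found under that name. The median over this list in Dp(16)1Yey/+ mice was -0.36, beside 0.03 over all loci.

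Genes of GABA uptake, breakdown and precursor supply showed a log2FC of 0.15 in the median gene in 189N3 mice (6 of 8 above 0) and of -0.33 in Dp(16)1Yey/+ mice (7 of 8 below 0). The mean of this list had an r of 0.29 with that of the members over the 14 libraries, 0.72 within the 189N3 line and 0.16 within the Dp(16)1Yey line.

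Of the 5 somatostatin receptor genes, Sstr2 was not found under that name, and Sstr1 and Sstr3 passed the filter on low values. The log2FC of Sstr1 was 0.44 (SE 0.36) in 189N3 mice and -0.65 (SE 0.45) in Dp(16)1Yey/+ mice, and that of Sstr3 was 0.22 (SE 0.33) and 0.19 (SE 0.23). In the striatal list, Drd1, which encodes a dopamine receptor of striatal neurons, had each 189N3 library above each littermate library, at 243, 202 and 336 normalized fragments against 81.4, 151 and 158 (log2FC 1.02, SE 0.30, adjusted p-value 1.00 in limma). The groups did not overlap either for the striatal genes Foxp1 (0.35, SE 0.23) and Rgs9 (0.33, SE 0.22), nor for the glutamate receptor genes Grin2b (0.42, SE 0.23) and Gria2 (0.17, SE 0.21), on the log2 scale in the same model. With Drd1 these were 3 of 17 striatal and 2 of 10 glutamatergic genes tested, all higher. The groups did not overlap in this direction for 1.99% of all loci. The exact two-sided permutation test reaches p = 0.10 at the lowest with 3 samples a group. In the hippocampal list, Neurod6, a factor of pyramidal neurons, had each Dp(16)1Yey/+ library above each littermate library (log2FC 0.60, SE 0.19, adjusted p-value 0.909 in limma), as did 1.72% of all loci. Its exact two-sided permutation p of 0.0286 is the lowest possible with 4 samples a group, and with each nearly alike littermate pair taken as 1 sample the exact p was 0.133, again the lowest possible. The next genes of the same list by p-value were below 0 in this model, Prox1 (-0.89, SE 0.42), Grik4 (-0.89, SE 0.42) and Lef1 (-0.39, SE 0.35), and 7 of its 11 genes were.

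Loci antisense to the members were abundant and did not all follow them. Dlx1as and Dlx6os1 are annotated long noncoding genes that run opposite to Dlx1 and through the Dlx5 and Dlx6 pair, and they averaged 1483 and 2061 normalized fragments, while Dlx1 ranged from 492 to 958 and Dlx6 from 73.1 to 227. Dlx6os1 ranged from 1139 in a littermate of Dp(16)1Yey mice to 4161 in Dp(16)1Yey replicate 1, the library that was also highest for Dlx6, and in Dp(16)1Yey/+ mice its log2FC came to 0.56 (SE 0.31), or 0.25 to 0.70 with each library left out in turn. Unnamed loci lay antisense to 4 members. The 3 opposite Gad2 summed to 1708 normalized fragments on average, 188.5% of Gad2 itself, and were above the gene in 13 of 14 libraries. Their sum was lowest in 189N3 replicate 2 (1199.7), where Gad2 was high, and highest in Dp(16)1Yey replicate 1 (3659), where Gad2 was also highest. The 2 opposite Gad1 summed to 513, or 52.2% of the gene, and their sum lay between 395 and 740.5 while Gad1 went from 614 to 1602 (r -0.24 over 14 libraries). The 2 opposite Lhx6 came to 25.5% of the gene (r -0.59), and the 1 opposite Dlx5 to 58.4% (r 0.70). The kit marked the strand, but whether the counting used it is not stated. Reads of these 4 genes, and of Dlx1 opposite Dlx1as, may thus have been shared with those of their antisense partners. The values of all these genes are uncertain to that extent. An unnamed locus antisense to Dlx6os1 averaged 1359 normalized fragments and was also highest in Dp(16)1Yey replicate 1, at 2707. Whether Dlx6 shared reads with this locus or with Dlx6os1 was not tested.

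**Figure D5:**
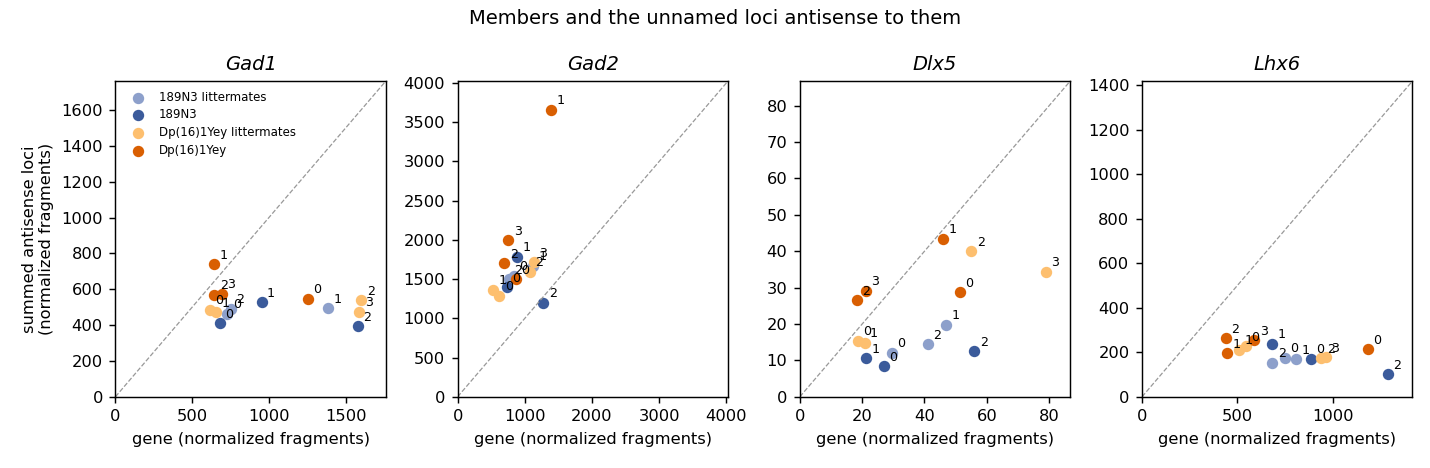
Summed normalized fragments of the unnamed antisense loci against those of the gene itself for the 4 members that have such loci, by library, with the dashed line at equal values. The antisense loci of Gad2 lie above the line in 13 of 14 libraries, and those of Gad1 lie between 395 and 740.5 over the whole range of the gene.

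The isoform table held 22 isoforms of the 9 genes. Of these, 17 were tested in 189N3 mice and 16 in Dp(16)1Yey/+ mice, and 0 passed limma's test in either model, at an adjusted p-value under 0.05 (0.0366% and 0.0214% of all isoforms tested) or at an unadjusted one (2.56% and 3.48%). A single isoform carried most of Gad1 (71.2% to 94.3% of the locus by library) and of Gad2 (89.9% to 95.5%). Lhx6 was split between an isoform with 46.3% to 82.7% and another with 17.3% to 53.7%, and Sst between a pair with 36.7% to 64.2% and 35.8% to 63.3%. For Slc32a1, with 16 to 151 fragments per library, either isoform reached 100% of the locus in some library, and the isoform values of this gene were not read. All isoform values are estimates of how the fragments of a locus divide.

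Named loci outside the 9 genes were ranked by Pearson r with the mean of the members, over the 14 libraries and after the line means were subtracted, among 14748 loci with a mean of at least 10 normalized fragments. Those most like the members included Rps19bp1 and Scml4 (each 0.97) and Slc27a2, Nab2, Nipal2, Chchd6, Sowaha and 1110008P14Rik (each 0.96). Within the lines, r of these loci lay between 0.84 and 0.98 over the 6 libraries of the 189N3 line and between 0.96 and 0.99 over the 8 of the Dp(16)1Yey line. The loci were picked by r over these same 14 libraries, so high values within the lines follow in part from that choice.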

How the data were processed

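RNA was prepared for paired-end sequencing from 14 samples of embryonic hippocampus, with a stranded kit. Per the methods, the authors aligned reads to mm10 with TopHat and Bowtie and counted them with Cufflinks, with correction for fragment bias and for reads with multiple matches (versions are not given in the sources used here). The deposited gene and isoform tables hold a signal, fragments divided by 1 size factor per library, which gave back whole fragments for 100% of low values. Columns of the authors' own comparisons were not used. Loci whose mean in the compared samples reached 10 were tested on log2(value + 1), fold changes included, with limma 3.58.1 (R 4.3.3) and Benjamini-Hochberg adjustment over all loci. Fold changes on this scale understate those of low genes. edgeR 4.0.16 and DESeq2 1.42.0 on recovered fragments were alternatives, and the fits were tested on simulated data. Exact permutation tests for single genes (SciPy 1.17.1) are two-sided and reach p = 0.10 at the lowest for 3 against 3 samples and 0.0286 for 4 against 4. The labels give 3 or 4 embryos per genotype, and each library was counted as 1 sample. Named genes were the 9 members, the up to 4 genes of each list with the smallest p-values, of which the text gives some, those whose groups do not overlap, and the 10 named loci most like the members. Some of these genes are not reported here. The 9 genes and all lists were chosen with earlier results of these data known. Gene models come from GENCODE vM21. Upstream sequences, from RefSeq, were matched by symbol for 7 of the 9 genes, and Lhx6 has 3 of them.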

Additional observations from a re-analysis of the deposited data

Results flagged for a closer look

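In 2 of 18 groups examined over the 9 genes and the 2 groups of 4 samples, 1 library lay far from the others, by a rule that marks about 1 group in 20 by chance. For Gad1 it was Dp(16)1Yey replicate 0, at 1254 normalized fragments against 642 to 691 in the other 3. For Dlx6 it was Dp(16)1Yey replicate 1, at 227 normalized fragments against 95.9 to 108.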

How the results depend on the processing

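For the 9 genes, 296 alternative values without a library left out gave 0 calls and 8 changes of sign. In 189N3 mice Dlx6 went to 0.014 with median-ratio size factors and 0.047 with quantile normalization, and Sst to 0.033 in DESeq2. In the difference of the models Gad2 went to -0.018 in DESeq2, and Dlx5 to -0.0097 with median-ratio size factors, -0.018 with quantile normalization, -0.19 in edgeR and -0.25 in DESeq2. In Dp(16)1Yey/+ mice edgeR also moved Dlx2 to -0.19, Dlx5 to -0.39, Gad2 to 0.10 and Sst to -1.22, and in the difference of the models it moved Dlx2 to -0.41 and Sst to -1.19. The cause was not tested.

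With each library left out in turn, log2 fold changes in 189N3 mice ran from -0.18 to 0.44 (Gad1), -0.14 to 0.25 (Gad2), -0.58 to 0.17 (Slc32a1), -0.15 to 0.063 (Dlx1), -0.11 to 0.41 (Dlx2), -0.66 to 0.020 (Dlx5), -0.13 to 0.041 (Dlx6) and -0.84 to 0.49 (Sst). In Dp(16)1Yey/+ mice they ran from -0.043 to 0.34 (Gad2), -0.092 to 0.22 (Dlx1), -0.31 to 0.29 (Dlx2), -0.52 to 0.15 (Dlx5) and -1.10 to 0.025 (Sst), and in the difference of the models from -0.12 to 0.31 (Gad2), -0.054 to 0.26 (Dlx1), -0.48 to 0.11 (Dlx2), -0.26 to 0.45 (Dlx5) and -1.02 to 0.31 (Sst). Such fits keep at least 1 library of each nearly alike littermate pair, so dependence on a pair was not tested.

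Over all loci, the 0 calls in 189N3 mice became 3 with median-ratio size factors, 15 in DESeq2, and 0 to 28 with a library left out (28 without littermate replicate 1), and 1786 loci had groups that do not overlap. In Dp(16)1Yey/+ mice they became 8 in DESeq2 and 0 to 3 with a library left out (3 without replicate 1), with 884 loci whose groups do not overlap, and in the difference of the models 0 to 1. edgeR called 0 in each. A replicate block gave 72, 0 and 0 calls, and 0 of the 9 genes. The numbers do not pair the samples: correlations of deviations between same-numbered samples were -0.32 to -0.03 in the 189N3 line and -0.45 to -0.07 in the Dp(16)1Yey line, and not every sample correlated best with its own number. Depth limits Slc32a1 and Dlx5, with 16 and 18 fragments in their lowest libraries.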
